A study of Bos taurus with 34 samples.

Results

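The miRNAs bta-miR-183, bta-miR-96 and bta-miR-182 are made from 1 locus, and their counts were followed here in cell-free RNA from the blood of dairy cows. The 3 were chosen by name, as the mature products of that locus, from the 800 bovine miRNA names in the count files. In the RefSeq annotation of the bovine assembly ARS-UCD2.0 the genes MIR182, MIR96 and MIR183 follow each other on chromosome 4, with NRF1 before MIR182. The study took blood at 2 samplings after calving from 11 cows that had subclinical endometritis (SCE), in which the lining of the uterus is inflamed without outward signs, and from 6 healthy cows. Status came from endometrial cytology and biopsy, and the stated purpose was to predict SCE from circulating miRNAs. The groups were SCE at day 45 (11 libraries), healthy at day 45 (6), SCE at day 25 (11) and healthy at day 25 (5). The labels call the tissue serum and the samplings day 25 and day 45, while the design text speaks of plasma at 21 and 44 days postpartum. The sources used here give no breed, age or treatment.

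In mammals the 3 miRNAs are cut from a shared primary transcript and have closely related sequences. They are best known from sensory organs, where they are abundant in photoreceptors and in the hair cells of the inner ear, and mutations in the seed of miR-96 cause hearing loss in humans and mice. In mouse helper T cells miR-182 is induced by interleukin 2 and represses Foxo1 during clonal expansion. RNA in serum or plasma is released by many tissues and by blood cells, so a level there has no single source. Fewer releasing cells and less RNA released per cell cannot be told apart in such samples.

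The 33 libraries used held between 678389 and 28872153 miRNA counts. Median totals were 9354855 in SCE and 16939642 in healthy cows at day 45, and 8454315 in SCE and 15570759 in healthy cows at day 25. Both libraries of SCE cow 10 were shallow, with 678389 counts at day 45 and 1343401 at day 25. Healthy cow 3 has no day-25 value here, because the file given for that sampling repeats its day-45 counts. The library titles number healthy cows first and SCE cows after them, so any order of preparation and the status cannot be told apart. The red blood cell miRNA miR-486 took a large share of the counts, with a median of 36.5% in SCE and 48.04% in healthy libraries at day 45, and of 10.8% in SCE and 45.3% in healthy libraries at day 25.

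The 3 miRNAs were unequal in level. Of their summed counts in all libraries, miR-182 took 82.6% (10871 counts), miR-183 15.9% (2087 counts) and miR-96 1.498% (197 counts). Levels are given below as TMM-normalised CPM, read counts scaled to a common library size after edgeR has rescaled each library total so that most miRNAs match between libraries. On that scale miR-182 ran between 5.75 and 73.2 CPM over the 33 libraries with a median of 21.1, and it stood 167th of the 800 names by mean level. The level of miR-183 ran between 0.478 and 23.1 CPM with a median of 3.83 (239th). The level of miR-96 ran between 0 and 2.89 CPM with a median of 0.238 (407th), and it had no count in 12 libraries. Counts from ligated small RNA compare miRNAs only roughly, since ligation favours some sequences. Summed over the 3 members, the TMM-normalised level ran between 9.40 and 79.4 CPM in SCE cows with a median of 21.9, and between 36.8 and 76.2 CPM in healthy cows with a median of 45.7, at day 45. At day 25 the sum ran between 8.36 and 98.8 CPM in SCE cows with a median of 16.2, and between 19.6 and 72.2 CPM in healthy cows with a median of 42.7. These sums follow miR-182, which makes up most of them, and the groups overlap at both days. The median share of miR-182 within the summed TMM-normalised level was 82.2% in SCE and 87.2% in healthy cows at day 45, and 83.6% in SCE and 85.1% in healthy cows at day 25.

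**Figure D1:**
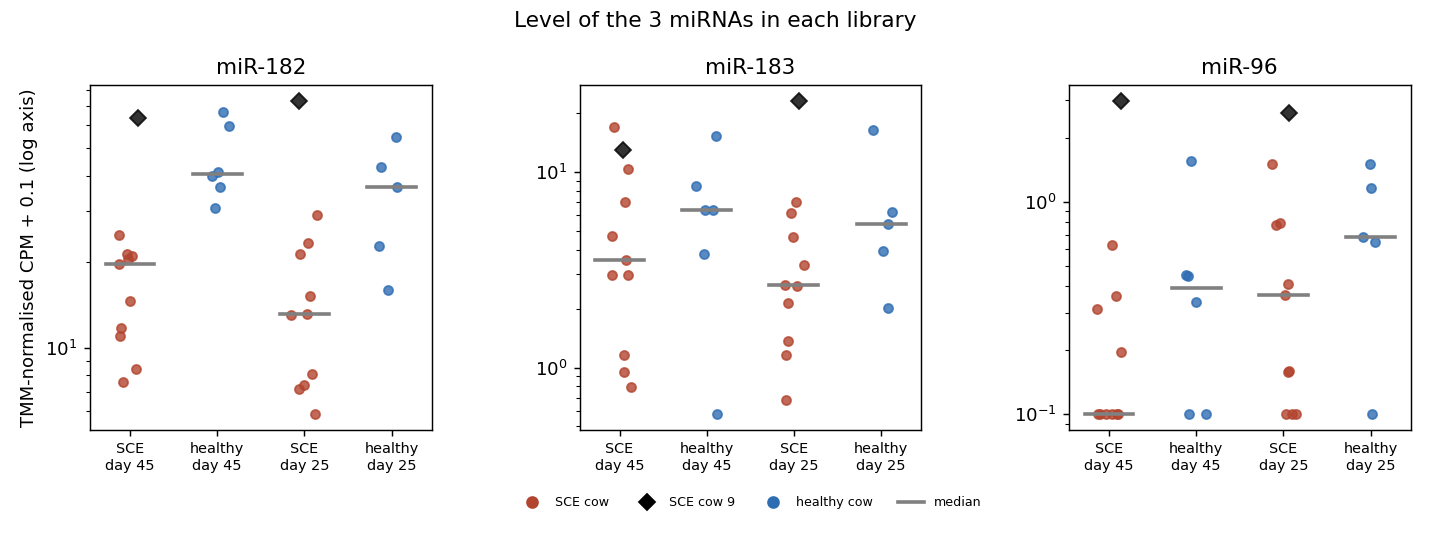
Level of miR-182, miR-183 and miR-96 in each library, as TMM-normalised CPM with 0.1 added on a log axis, by status and day; each point is 1 library, bars are group medians and diamonds mark SCE cow 9. At day 45 the SCE points of miR-182, apart from that of SCE cow 9, lie below the lowest healthy point at 30.7 CPM, while the points of miR-183 and miR-96 overlap throughout.

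At day 45 the TMM-normalised level of miR-182 was lower in most SCE cows than in any healthy cow. It ran between 7.48 and 63.6 CPM in SCE cows with a median of 19.5, and between 30.7 and 66.6 CPM in healthy cows with a median of 40.4. The means were 20.3 ± 15.5 CPM in SCE (SD, n = 11) and 45.7 ± 14.1 CPM in healthy cows (SD, n = 6). Of the 11 SCE libraries, 10 were below every healthy library, and the exception was SCE cow 9 at 63.6 CPM. That count of 10 was then used as the cutoff for all miRNAs, so its outcome is a description and no separate support for miR-182. Of the 382 miRNAs tested at day 45, miR-182 was the only one with at least 10 SCE libraries below every healthy library (0.262%). In the other direction, 2 of the 382 had at least 10 SCE libraries above every healthy library (0.524%), miR-296-5p and miR-425-3p, which are named here for this count. This separation depends on the scaling: on CPM by library totals alone, 3 of the 11 SCE libraries were below every healthy one and 1 was above.

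The edgeR log2 fold change of miR-182 at day 45, SCE over healthy, was -1.17 (SE 0.41, 95% interval -2.002 to -0.33), with a Benjamini-Hochberg adjusted p of 0.360. The call was not made, although miR-182 stood 8th of 382 miRNAs by p. At this sampling edgeR called 0 of 382 miRNAs at an adjusted p under 0.05 (0%), DESeq2 called 1 of 748 (0.134%), and neither call was a member. At an unadjusted p under 0.05 edgeR had 39 miRNAs (10.2%), of which 18 were lower in SCE (4.71%), miR-182 among them. No miRNA of the 382 had SCE and healthy libraries that did not overlap (0%).

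At day 25 the values of miR-182 ran the same way with more overlap. In SCE cows they ran between 5.75 and 73.2 CPM with a median of 13.0. In healthy cows 1, 2, 4, 5 and 6 they were 22.6, 36.4, 15.8, 42.6 and 54.6 CPM. Of the 11 SCE libraries, 7 were below every healthy library and SCE cow 9, at 73.2 CPM, was above every one. Of the 372 miRNAs tested, 22 had at least 7 SCE libraries below every healthy one (5.91%), a cutoff set at the count of miR-182 itself. By library totals alone 0 of the 11 SCE libraries were below every healthy library and 2 were above.

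The log2 fold change of miR-182 at day 25 was -0.84 (SE 0.53, 95% interval -1.94 to 0.26, edgeR adjusted p = 0.370). Among 372 miRNAs edgeR called 1 (0.269%), and DESeq2 called 14 of 522 (2.68%), none of them a member. The unadjusted p was under 0.05 for 75 miRNAs (20.2%), 32 of them lower in SCE (8.6%), and miR-182 was not among them. Libraries of the 2 statuses did not overlap for 1 miRNA of 372 (0.269%), which was not a member. With the counts of both days summed per cow, the log2 fold change of miR-182 was -1.08 (SE 0.38, 95% interval -1.86 to -0.29, edgeR adjusted p = 0.191), where 1 of 418 miRNAs, no member, was called (0.239%). There the adjusted p by DESeq2 was 0.0677, with 15 of 286 miRNAs called (5.24%). By unadjusted p miR-182 was 1 of 27 lower miRNAs (6.46%) among 69 in all (16.5%).

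**Figure D2:**
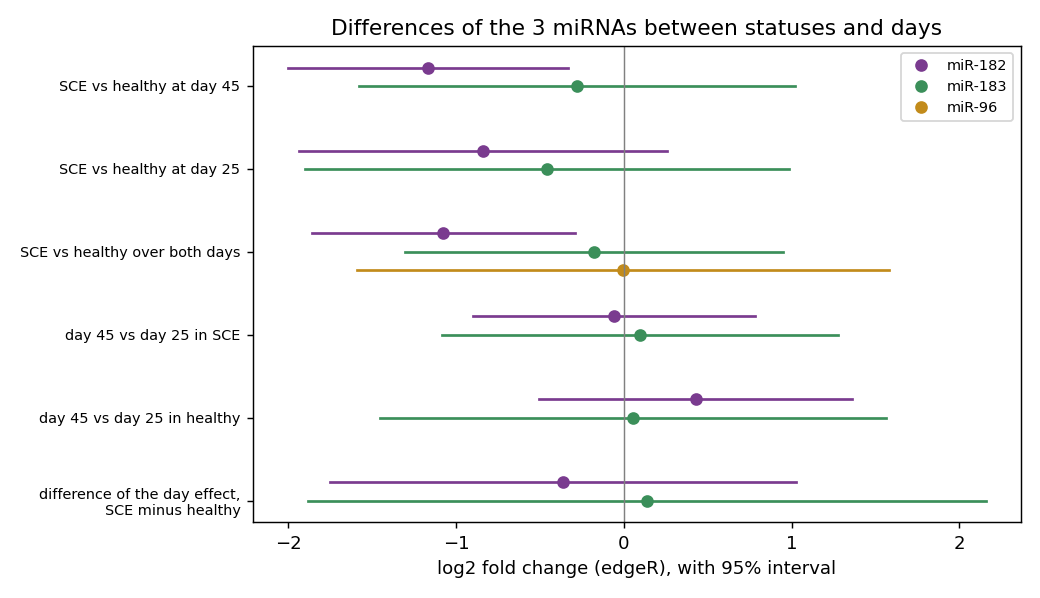
Fitted edgeR log2 fold changes of miR-182, miR-183 and miR-96 with 95% intervals, for SCE over healthy cows at each day and over both days, for day 45 over day 25 in each status, and for the difference of the day effect; miR-96 is drawn where it passed the filter on low counts. Intervals of miR-182 lie below 0 at day 45 (-2.002 to -0.33) and over both days (-1.86 to -0.29), and all others include 0.

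A single cow carried much of the spread of miR-182. SCE cow 9 had the highest level among SCE cows at both days, at 63.6 CPM (792 counts) at day 45 and 73.2 CPM (637 counts) at day 25, while the next highest, SCE cow 11, had 24.7 and 29.1 CPM at those days. Without SCE cow 9 the log2 fold change was -1.45 at day 45 (edgeR adjusted p = 0.108) and -1.29 at day 25 (edgeR adjusted p = 0.0986). Over both days it was -1.46 (SE 0.29, edgeR adjusted p = 0.0125), which passed the threshold, in a fit that called 9 of 416 miRNAs (2.16%). That fit leaves out the SCE cow that lies farthest from the others in the measured level itself, so it describes the weight of 1 cow and is no separate test. Leaving out each of the 17 cows in turn gave values between -1.46 and -0.97 over both days, with adjusted p between 0.0125 and 0.313. Only the fit without SCE cow 9 passed the threshold.

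**Figure D3:**
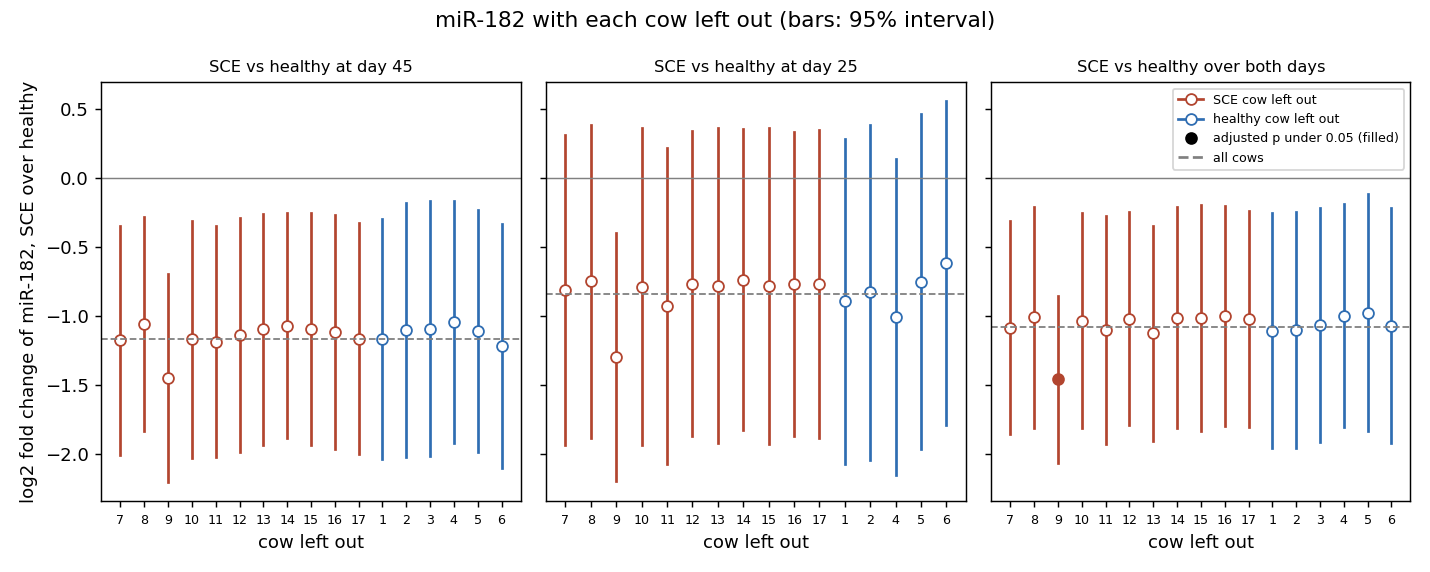
The edgeR log2 fold change of miR-182, SCE over healthy, with each cow left out in turn, at day 45, at day 25 and over both days; bars are 95% intervals, the dashed line is the value with all cows, and a filled point has an adjusted p under 0.05. Every point lies below 0, between -1.45 and -1.04 at day 45, -1.29 and -0.62 at day 25, and -1.46 and -0.97 over both days.

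No listed red blood cell miRNA was called by edgeR or DESeq2 between the statuses, but few of any kind were. Calls by edgeR were 0 of 382 at day 45 (0%), 1 of 372 at day 25 (0.269%) and 1 of 418 over both days (0.239%). Those by DESeq2 were 1 of 748 (0.134%), 14 of 522 (2.68%) and 15 of 286 (5.24%). Over both days miR-486 had a log2 fold change, SCE over healthy, of -1.44 (edgeR adjusted p = 0.191, as for miR-182). Of the 8 listed 6 were lower there, with a median of -0.48, against 0.04 for all miRNAs tested. Values of the red cell measures overlapped. The log2 ratio of miR-486, a red cell miRNA, to miR-23a, which red cells hold little of, was 7.84 ± 1.73 in SCE (SD, n = 11) and 9.85 ± 2.0 in healthy cows (SD, n = 6) at day 45. The day-25 ratio was 6.66 ± 2.77 in SCE (SD, n = 11) and 9.97 ± 1.48 in healthy cows (SD, n = 5). The log2 ratio of miR-451, another red cell miRNA, to miR-23a overlapped more, at 2.01 ± 1.60 in SCE (SD, n = 11) and 2.98 ± 1.51 in healthy cows (SD, n = 6) at day 45. Its day-25 values were 1.92 ± 1.80 in SCE (SD, n = 11) and 2.71 ± 2.34 in healthy cows (SD, n = 5). For miR-144, made from the same locus as miR-451, the log2 ratio to miR-23a was -3.11 ± 1.39 in SCE (SD, n = 11) and -1.81 ± 1.65 in healthy cows (SD, n = 6) at day 45. For day 25 it was -3.47 ± 1.63 in SCE (SD, n = 11) and -2.64 ± 1.79 in healthy cows (SD, n = 5). The reference miR-23a is itself in the neutrophil and monocyte list used below. Of that list 6 of 6 had a log2 fold change above 0 over both days, with a median of 0.60. The part of miR-23a in these ratios was not tested. The summed TMM-normalised level of the 8 listed red cell miRNAs ran between 40545 and 665067 CPM in SCE and between 131490 and 1999230 CPM in healthy cows at day 45. The day-25 sum ran between 33247 and 1903910 CPM in SCE and between 302022 and 2127330 CPM in healthy cows (rescaled sums are not capped by the library total). None of the 8 was at 0 throughout any group, and miR-486 is the most abundant of them.

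With the miR-486 to miR-23a ratio as a covariate, the log2 fold change of miR-182 was -1.78 at day 45 (edgeR adjusted p = 0.107), -0.18 at day 25 (edgeR adjusted p = 0.916) and -1.39 over both days (edgeR adjusted p = 0.989). Using miR-451 over miR-23a instead, the log2 fold change was -1.35 at day 45, -0.76 at day 25 and -1.09 over both days. The part of red cell RNA in the level of miR-182 was not tested beyond these fits.

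The library scale also differed by status. Median TMM factors were 1.11 in SCE and 0.688 in healthy cows at day 45, and 1.37 in SCE and 0.724 in healthy cows at day 25. Scaling by library totals alone raised the median log2 fold change of all tested miRNAs by 0.60 at day 45, 0.93 at day 25 and 0.73 over both days. The log2 fold change of miR-182 was then -0.38, 0.02 and -0.31, so at day 25 its sign turned. Relative to the median of all tested miRNAs, it was -1.28 by TMM and -1.09 by totals at day 45, -0.79 and -0.86 at day 25, and -1.12 and -1.07 over both days.

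The level of miR-183 showed no such separation. At day 45 it ran between 0.696 and 16.9 CPM in SCE cows with a median of 3.44, and between 0.478 and 15.2 CPM in healthy cows with a median of 6.29. The highest SCE value rests on 13 counts in the shallow library of SCE cow 10, where the exact 95% binomial interval of the CPM by library total was 10.2 to 32.8. At day 25 it ran between 0.581 and 23.1 CPM in SCE cows with a median of 2.55. Healthy cows 1, 2, 4, 5 and 6 had 1.91, 5.32, 3.83, 6.16 and 16.2 CPM of miR-183 at day 25. The statuses overlapped at both days: at day 45 no SCE library was below every healthy one and 1 was above, and at day 25 3 were below and 1, from SCE cow 9, was above.

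The edgeR log2 fold change of miR-183, SCE over healthy, was -0.28 at day 45 (SE 0.63, 95% interval -1.58 to 1.02, adjusted p = 0.920). It was -0.46 at day 25 (SE 0.69, 95% interval -1.90 to 0.98, edgeR adjusted p = 0.744) and -0.18 over both days (SE 0.55, 95% interval -1.30 to 0.95, edgeR adjusted p = 0.899). Each interval holds values on both sides of 0, so the data do not fix a direction for miR-183. By library totals alone the 3 values were 0.52, 0.44 and 0.53, under the same shift of all miRNAs. Relative to the median of all tested miRNAs, miR-183 was at -0.39 by TMM and -0.19 by totals at day 45, -0.41 and -0.44 at day 25, and -0.22 and -0.24 over both days. Without healthy cow 5 the value was 0.092 at day 45 and 0.14 over both days, and without healthy cow 6 it was 0.13 at day 25.

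Counts of miR-96 were too few for a firm comparison. At day 45 it ran between 0 and 2.89 CPM in SCE cows with a median of 0, and between 0 and 1.46 CPM in healthy cows with a median of 0.292. At day 25 it ran between 0 and 2.53 CPM in SCE cows with a median of 0.266, and was 0.545, 1.06, 0, 0.583 and 1.40 CPM in healthy cows 1, 2, 4, 5 and 6. No count was found in 6 of 11 SCE and 2 of 6 healthy libraries at day 45, nor in 3 of 11 SCE and 1 of 5 healthy libraries at day 25. In the libraries at 0, the limit that a count of 0 allows, 3 counts, was between 0.206 and 4.42 CPM by library total. The statuses overlapped at both days, and SCE cow 9 had the highest value at each, on 36 counts at day 45 and 22 at day 25.

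At single days miR-96 did not pass the edgeR filter on low counts, so 2 of the 3 members were tested there. With both days summed per cow all 3 passed, and the log2 fold change of miR-96 was -0.0033 (SE 0.77, 95% interval -1.59 to 1.58, edgeR adjusted p = 0.998). Without the filter it was -0.03 at day 45 (95% interval -2.27 to 2.21) and -0.27 at day 25 (95% interval -2.23 to 1.69). Each of these intervals holds values on both sides of 0, so the data fix no direction for miR-96.

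Ratios between members within a library do not depend on the scaling. The log2 ratio of miR-182 to miR-183, with 0.5 added to each count, was 2.20 ± 1.40 in SCE (SD, n = 11) and 3.23 ± 1.46 in healthy cows (SD, n = 6) at day 45. The difference was -1.03 and did not pass an exact two-sided permutation test (p = 0.183, adjusted p = 0.872 over 6 tests). Leaving out each cow in turn gave -1.28 to -0.47, the last without healthy cow 3. At day 25 the ratio was 2.27 ± 0.98 in SCE (SD, n = 11) and 2.57 ± 0.70 in healthy cows (SD, n = 5), a difference of -0.30 (exact permutation p = 0.590). The lowest ratio was that of SCE cow 14 at day 25, where miR-183 with 39 counts passed miR-182 with 37. The highest was that of healthy cow 3 at day 45, with 228 counts of miR-182 and 3 of miR-183. The differences in the log2 ratio of miR-96 to miR-183 were -0.47 at day 45 and -0.16 at day 25, and those of miR-182 to miR-96 were -0.56 and -0.14. None of the 6 exact permutation tests had an adjusted p below 0.872.

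No member passed the test between the 2 samplings, but miR-96 did not pass the edgeR filter on low counts in the main fits. The main fits of the day leave out the cow, although the same cows were sampled at both days. Healthy cow 3 enters them at day 45 alone. In SCE cows miR-182 was higher at day 45 in 5 of 11 cows, with a log2 fold change, day 45 over day 25, of -0.06 (SE 0.41, 95% interval -0.90 to 0.78, edgeR adjusted p = 0.945). In healthy cows it was higher at day 45 in 3 of 5 cows, with a log2 fold change of 0.43 (SE 0.45, 95% interval -0.50 to 1.36). The difference of the day effect, SCE minus healthy, was -0.36 (SE 0.69, 95% interval -1.75 to 1.03, edgeR adjusted p = 0.988). With the cow as a block, over cows with both libraries, miR-182 was at 0.12 in SCE (SE 0.29), where its sign turned. The block gave 0.44 in healthy cows (SE 0.61) and a difference of -0.27 (SE 0.58). For miR-183 the day effect was 0.10 in SCE (SE 0.58) and 0.05 in healthy cows (SE 0.72), with a difference of 0.14 (SE 0.997). It was higher at day 45 in 7 of 11 SCE and 4 of 5 healthy cows. The count of miR-96 gave a higher level at day 45 in 3 SCE cows, a lower one in 5 and 0 at both days in 3, and a higher one in 2 of 5 healthy cows.

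In these day comparisons edgeR called 0 of 346 miRNAs in SCE (0%), 0 of 345 in healthy cows (0%) and 0 of 406 for the difference (0%), and DESeq2 called none in any of them (0%). At an unadjusted p under 0.05 edgeR had 14 miRNAs in SCE (4.05%), 10 in healthy cows (2.9%) and 7 for the difference (1.72%), none of them a member. Of the members only miR-182 and miR-183 were tested in these edgeR fits.

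**Figure D4:**
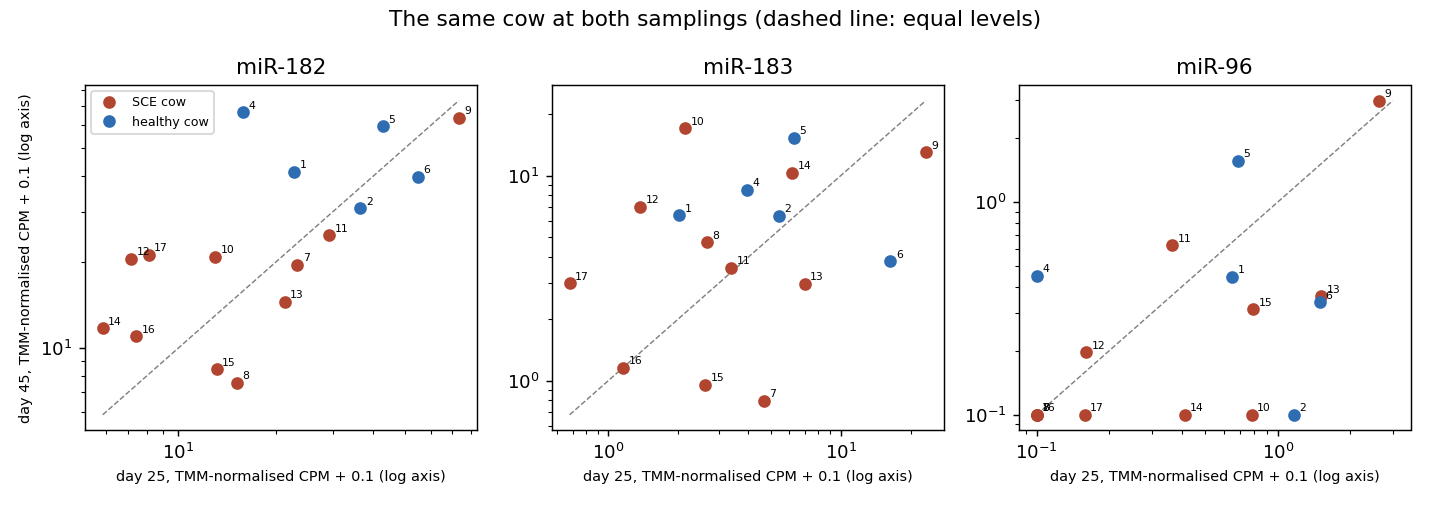
Level of each member in the same cow at day 45 (vertical) and day 25 (horizontal), as TMM-normalised CPM with 0.1 added on log axes, for the 16 cows with both libraries; numbers are cow numbers and the dashed line marks equal levels. SCE cow 9 lies at the upper right in all panels, with 63.6 CPM of miR-182 at day 45 and 73.2 CPM at day 25.

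The level in the same cow was compared between the 2 samplings. Values over 16 cows mix both statuses, so they also hold any gap between SCE and healthy cows. For miR-182 the medians were 13.0 CPM in SCE and 36.4 CPM in healthy cows at day 25, and 19.5 and 40.4 CPM at day 45. How far that gap makes up the correlation was not tested. For miR-182, over the 16 cows with both libraries, log2 levels at day 45 and day 25 correlated with Pearson r = 0.64 (permutation p = 0.0076, adjusted p = 0.0228 over the 3 members) and Spearman rho = 0.63 (permutation p = 0.0107, adjusted p = 0.0322). Without the 2 cows farthest from the median at day 25 r was 0.52. Within the 11 SCE cows r was 0.63 (permutation p = 0.0399, adjusted p = 0.0598) and rho 0.37 (permutation p = 0.259), and without SCE cow 9 r was 0.22. The SCE relation of miR-182 thus rests on that cow, and the 5 healthy cows are too few for a value. Over 16 cows miR-183 had r = 0.28 (permutation p = 0.293) and rho = 0.23 (permutation p = 0.399), and 0.12 without the 2 farthest cows. The level of miR-96 had r = 0.52 (permutation p = 0.0414, adjusted p = 0.0621) and rho = 0.39 (permutation p = 0.131), and r = 0.42 without the 2 farthest. Within the 11 SCE cows miR-96 had r = 0.73 (permutation p = 0.0078, adjusted p = 0.0233) and rho = 0.70 (permutation p = 0.0227, adjusted p = 0.0682). There r was 0.41 without the 2 farthest cows and 0.54 without SCE cow 9 (permutation p = 0.107), so r depends on which cows are kept. Leaving out the farthest cows narrows the range, which can itself lower r. Within SCE miR-183 had r = 0.29 (permutation p = 0.387).

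Between members, the pairs with miR-96 correlated more closely over the 17 cows than miR-182 with miR-183, in log2 CPM on counts summed per cow. The difference between pairs was not tested, and their order changed with the measure. Over the 33 libraries, on TMM-normalised CPM, Spearman rho was 0.56 for miR-182 with miR-183. It was 0.52 for miR-182 with miR-96 and 0.41 for miR-183 with miR-96. For miR-183 and miR-96 r was 0.66 (permutation p = 0.0037, adjusted p = 0.0111 over 3 pairs) and rho 0.68 (permutation p = 0.0034), and r was 0.56 without the 2 farthest cows. For miR-182 and miR-96 r was 0.61 (permutation p = 0.0083, adjusted p = 0.0124) and rho 0.62 (permutation p = 0.0101), and r was 0.38 without the 2 farthest. For miR-182 and miR-183 r was 0.38 (permutation p = 0.129) and rho 0.34 (permutation p = 0.186), and r was 0.03 without the 2 farthest.

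The same pairs within each status, on TMM-normalised CPM of counts summed per cow, gave mixed values. On that scale r over the 17 cows was 0.68 for miR-183 with miR-96. It was 0.63 for miR-182 with miR-96 and 0.39 for miR-182 with miR-183. Within the 11 SCE cows r was 0.69 for miR-183 with miR-96, 0.69 for miR-182 with miR-96 and 0.54 for miR-182 with miR-183. Spearman rho for these pairs was 0.69, 0.62 and 0.26. Without the 2 SCE cows farthest from the median of the miRNA named first in each pair, r was 0.36, 0.46 and 0.075. Leaving out such cows narrows the range, which can itself lower r, so the fall does not show that the relations rest on them. Within the 6 healthy cows the 3 values of r were 0.89, 0.21 and 0.51, and the first turned to -0.40 without the 2 farthest cows. Their Spearman rho was 0.60, 0.26 and 0.83, highest for miR-182 with miR-183. On the same scale without SCE cow 9, over 16 cows, r was 0.61, 0.55 and 0.26. The values with miR-96 rest on 197 counts in all.

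For each member, some other miRNAs followed it more closely than the other members did. The nearest were picked as the highest of 405 or 406 values, so some are likely to pass a fixed pair. Counts were 3 to 302 for miR-183, against 22066 to 2229252 for miR-192 and 10 to 762 for miR-410. Counting error at low counts can lower the likeness between members. The likeness used here is Spearman's rho of TMM-normalised CPM over the 33 libraries, which include 2 libraries from most cows and share 1 scaling, so it is a description and has no p. Nearest to miR-182 were miR-192, a miRNA abundant in liver and gut, with rho = 0.87, miR-107, which lies in an intron of PANK1, with 0.85, and miR-410, from the imprinted DLK1-DIO3 region, with 0.81. Among the 405 miRNAs compared, miR-183 was 39th for miR-182, with rho = 0.56. Centred within the 4 groups the 3 nearest had 0.80, 0.76 and 0.78, and without both libraries of SCE cow 9 they had 0.85, 0.82 and 0.77.

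Nearest to miR-183 were 3 members of the miR-99 and miR-100 family, miR-99b with rho = 0.71, miR-100 with 0.71 and miR-99a-5p with 0.68, and miR-182 was 24th. Nearest to miR-96 were miR-215, which is of the same family as miR-192, with rho = 0.74, and miR-200a and miR-429, of the epithelial miR-200 family, with 0.71 and 0.67. For miR-96, whose low counts tie many libraries, miR-182 was 27th with rho = 0.52 and miR-183 51st with 0.41. The highest and lowest of these 9 nearest values without SCE cow 9 were 0.85 for miR-192 with miR-182 and 0.60 for miR-429 with miR-96.

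**Figure D5:**
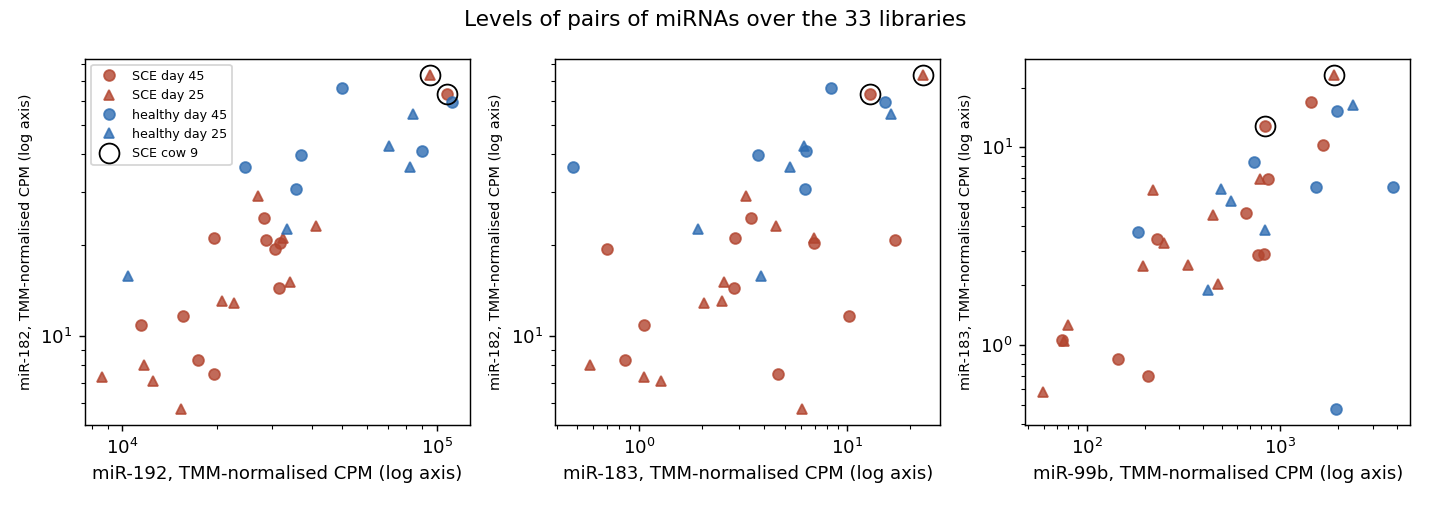
Levels of miR-182 against miR-192, miR-182 against miR-183 and miR-183 against miR-99b in the 33 libraries, as TMM-normalised CPM on log axes, by status (colour) and day (shape), with both libraries of SCE cow 9 circled. Points of miR-182 lie closest to a line against miR-192 (Spearman rho = 0.87) and scatter more against miR-183 (rho = 0.56).

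The level of miR-192 ran between 11518 and 107990 CPM in SCE cows with a median of 28277, and between 24644 and 112162 CPM in healthy cows with a median of 43524, at day 45. Its edgeR log2 fold change, SCE over healthy, was -0.89 at day 45 (adjusted p = 0.460), -0.97 at day 25 (adjusted p = 0.276) and -0.87 over both days (adjusted p = 0.262). For miR-107 the 3 log2 fold changes were -1.13, -0.86 and -0.96, and for miR-99b they were -1.27, -1.12 and -1.08, none of them called by edgeR. The log2 ratio of miR-182 to miR-192, a pair chosen after its values were seen and so not tested, was -10.57 ± 0.46 in SCE (SD, n = 11) and -10.16 ± 0.69 in healthy cows (SD, n = 6) at day 45. At day 25 it was -10.63 ± 0.42 in SCE (SD, n = 11) and -10.46 ± 0.66 in healthy cows (SD, n = 5).

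The rank of SCE cow 9 differed between these miRNAs. It ranked first of the 11 SCE cows at both days for miR-182, miR-96, miR-192, miR-215, miR-107, miR-410, miR-200a and miR-429. For miR-183 it ranked second at day 45 and first at day 25, as it did for miR-100. It ranked 4 at day 45 and first at day 25 for miR-99b, and 4 and 2 for miR-99a-5p. The summed TMM-normalised level of the 7 epithelial miRNAs found in the files was 8977 CPM in SCE cow 9 at day 45, against a median of 1834 CPM over SCE cows and 1821 CPM over healthy cows. Its day-25 sum was 8082 CPM in SCE cow 9, against 2141 CPM over SCE and 1679 CPM over healthy cows. The summed liver list in SCE cow 9 was 117091 CPM at day 45 and 103923 CPM at day 25, but miR-192 alone made up 107990 and 95070 CPM of it, so this sum repeats the rank of miR-192. The same cow was last of the 11 SCE cows at day 45 for the summed red cell list (40545 CPM) and the platelet list (39370 CPM), and 5 and 10 of 11 for these lists at day 25. For the sensory and neural list it was 10 of 11 at day 45 and last at day 25. Its miR-486 took 3.95% of the counts at day 45 and 27.8% at day 25. The part of any of these in the level of miR-182 was not tested.

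Lists of miRNAs typical of blood cells and tissues were set beside the members as context. In the status comparisons edgeR called none of their miRNAs. Of all miRNAs it called 0 of 382 at day 45 (0%), 1 of 372 at day 25 (0.269%) and 1 of 418 over both days (0.239%). Calls by DESeq2 over all miRNAs were 1 of 748 (0.134%), 14 of 522 (2.68%) and 15 of 286 (5.24%). Among the listed miRNAs DESeq2 called miR-150 at day 45 (log2 fold change 2.53, adjusted p = 0.0424). At day 25 it called miR-151-3p (-1.31, adjusted p = 0.0498) and miR-27a-3p (1.32, adjusted p = 0.0279). Over both days DESeq2 called the lymphocyte miRNAs miR-28 (0.99, adjusted p = 0.0490) and miR-29c (1.12, adjusted p = 0.0244), named here for this count. At day 45 all 9 lymphocyte miRNAs had a log2 fold change above 0 with a median of 0.77, as had all 7 tested epithelial miRNAs, with a median of 0.83. Of all 382 miRNAs tested, 218 were above 0 and the median was 0.11. The most abundant lymphocyte miRNAs were miR-181a, with a log2 fold change of 0.01, and miR-150, a marker of mature lymphocytes, with 2.60 (edgeR adjusted p = 0.277). The most abundant epithelial miRNAs were miR-375, with 0.14, and miR-141, with 0.05.

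Of the 8 red cell miRNAs 5 were below 0 at day 45 with a median of -0.15, led in level by miR-486 (-1.37, edgeR adjusted p = 0.460) and miR-92a (-0.03). Of the 8 platelet miRNAs 6 were below 0 with a median of -0.28, led by miR-191 (-0.14) and miR-151-3p (-0.42). Of the 6 neutrophil and monocyte miRNAs 5 were above 0 with a median of 0.52, led by miR-142-5p (-0.06) and miR-27a-3p (0.40). Of the 5 liver miRNAs 3 were above 0 with a median of 0.19, led by miR-192 (-0.89) and miR-148a (-0.45). Sensory and neural miRNAs were sparse: 3 of the 8 listed passed the filter, with a median of -0.10, led by miR-204 (0.43) and miR-211 (-0.10), both abundant in the retina and its pigment epithelium.

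At day 25 the medians were 0.70 for the lymphocyte list (7 of 9 above 0), 0.80 for the epithelial list (6 of 7), 0.48 for the neutrophil and monocyte list (6 of 6) and -0.61 for the liver list (1 of 5). They were -0.37 for the red cell list (3 of 8), -0.10 for the platelet list (4 of 8) and -0.02 for the sensory and neural list (1 of 3). Of all 372 miRNAs tested at day 25, 178 were above 0 and the median was -0.05.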

How the data were processed

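Small RNA libraries of cell-free blood RNA were made with the TruSeq Small RNA kit and 13 or 16 PCR cycles, per the labels' protocols, which name no molecular identifiers. The authors deposited whole-number counts per mature miRNA, 1 file per library, not normalized. Per the submitters' processing notes, bcl2fastq 2.17.1.14, the build UMD3.1 and DESeq2 were used. The sources used here do not give the aligner, the annotation or how multi-mapping reads were counted. Totals of 678389 to 28872153 counts set the precision, and intervals and limits of single values cover counting error only.

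Of 34 files 33 were used, because 1 was a copy; the planned tests had assumed 6 healthy cows at day 25. Each comparison was tested with edgeR 4.0.16 (quasi-likelihood F test, R 4.3.3, TMM, default filter on low counts, Benjamini-Hochberg adjustment over all miRNAs tested, adjusted p under 0.05, two-sided) fitted on the whole table, and SE was the absolute log2 fold change over the square root of F. The script was tested on simulated data. DESeq2 1.42.0, other scalings and filters, covariates, leaving out each cow and a cow block were the alternatives. Ratios had exact permutation tests, and correlations 100000 resamples (scipy 1.17.1). Cows are separate animals, sampled at both days, so animal numbers pair the libraries by the labels; within a cow, deviations from group means across miRNAs correlated at a median r of 0.25, over 0.1 in 11 of 16 cows.

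The members and the lists of context miRNAs were chosen with earlier results of these data known. Named besides the members were the 3 miRNAs most like each one, the red cell measures, and the 2 most abundant miRNAs of each list (red blood cell, platelet, lymphocyte, neutrophil and monocyte, epithelium, sensory and neural tissue, liver). Exceptions were single SCE cow 9 comparisons and the ratio of miR-182 to miR-192, miR-296-5p, miR-425-3p, miR-28 and miR-29c, chosen after seeing the data.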

Additional observations from a re-analysis of the deposited data

Results flagged for a closer look

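Of 12 groups of values examined for a sample far from the rest of its group, 2 held one, where chance gives about 1 in 20 groups. The level of miR-96 in healthy cow 5 at day 45 was 1.46 TMM-normalised CPM on 29 counts, while the other 5 healthy cows at day 45 lay between 0 and 0.350 CPM. The log2 ratio of miR-182 to miR-183 in healthy cow 3 at day 45 was 6.03, where miR-183 had 3 counts. Groups of 11 SCE libraries were not examined in this way.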

How the results depend on the processing

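The number of miRNAs called at day 45 was 0, and 1 by DESeq2, by library totals alone or with the miR-451 covariate. At day 25 it was 1, and 14 by DESeq2, 4 with DESeq2 size factors, 48 by library totals, 4 without miR-486, 6 without a filter and 2 with the miR-451 covariate. Leaving out each cow in turn gave 0 to 7 calls at day 25, the highest without SCE cow 7. Over both days it was 1, and 15 by DESeq2, 64 by library totals, 2 without miR-486, without a filter or with at least 10 CPM, and 0 with either covariate. Leaving out each cow in turn gave 0 to 10 there, with 10 without SCE cow 7 and 9 without SCE cow 9. For the difference of the day effect it was 0, and 1 without a filter.

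The log2 fold change of miR-182 between statuses kept its sign and its side of the threshold in every alternative at day 45 and over both days, except that the fit without SCE cow 9 passed it over both days (-1.46, in a range of -1.46 to -0.97). At day 25 its sign turned by library totals (0.018). The adjusted p of miR-182 over both days was 0.0677 by DESeq2 and 0.989 with the miR-486 covariate, and the other alternatives that kept all cows lay between.

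For miR-183 between statuses the sign turned by library totals (0.52 at day 45, 0.44 at day 25, 0.53 over both days) and with the miR-486 covariate at day 25 (0.11). Leaving out each cow gave -0.51 to 0.092 at day 45, -1.13 to 0.13 at day 25 and -0.55 to 0.14 over both days. For miR-96 over both days it was 0.011 by DESeq2, 0.77 by library totals and 0.13 with the miR-451 covariate, and -0.93 to 0.34 without each cow. For miR-182 between days in SCE it was 0.11 by DESeq2, 0.11 with its size factors, 0.13 by library totals, 0.11 without miR-486, 0.00048 without a filter and 0.10 with at least 10 CPM, and -0.14 to 0.14 without each cow. Without each cow, miR-183 between days ran between -0.23 and 0.61 in SCE and between -0.45 and 0.62 in healthy cows, with a difference of -0.60 to 0.56. In healthy cows it was -0.083 by DESeq2 and -0.084 with its size factors. Library totals moved the median of all miRNAs between statuses by 0.60, 0.93 and 0.73, and relative to it miR-183 was -0.19, -0.44 and -0.24 and miR-182 at day 25 was -0.86, so those turns come with the shift. The cause of the other turns was not tested, and the 95% interval of each reported value holds 0.

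With the cow as a replicate block, miR-182 between days was 0.12 in SCE and 0.44 in healthy cows, with a difference of -0.27, and miR-183 was 0.23, 0.44 and -0.15. The block changed no call. At day 25 the ratio of miR-182 to miR-96 differed by 0.13 with 0.1 added, and by -0.38 to 0.34 without each cow. That of miR-96 to miR-183 differed by 0.11 with 2 added, and by -0.77 to 0.24 without each cow. Depth limits miR-96 most, with 197 counts in 33 libraries.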
